A study of Mus musculus with 24 samples.

Results

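The miRNAs described here are mmu-miR-451a, mmu-miR-144-3p, mmu-miR-144-5p, mmu-miR-486a-5p, mmu-miR-486a-3p and mmu-miR-486b-5p, followed in the brain of newborn mice. They are grouped as red blood cell miRNAs by name, not by their values in these tissues. They were chosen by name, as the products of the miR-144 and miR-451 cluster and of the miR-486 locus, and are 6 of the 1531 mouse miRNA entries counted in each library. In erythroid cells, the transcription factor GATA1 drives a common precursor of miR-144 and miR-451, and both accumulate as red cells mature. MiR-451 is unusual in that its short hairpin is cut by Argonaute 2 rather than by Dicer. MiR-486 comes from an intron of the ankyrin 1 gene (Ank1), which is used in both red cell precursors and striated muscle. A brain that is not perfused retains blood in its vessels, so these miRNAs may come from blood in the dissected tissue. Blood or haemoglobin in the samples was not measured. In bulk tissue, fewer cells of a type and less of the RNA per cell cannot be told apart.

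The study asked how miRNAs differ among brain regions shortly after neonatal hypoxic-ischemic brain injury (HIBI). CD1 pups of both sexes were used at postnatal day 9. In the 4 HIBI pups (1, 4, 5 and 7) the right common carotid was cauterized under isoflurane, and after 2 h of recovery they breathed 8% oxygen for 30 min. The 4 sham pups (2, 3, 6 and 8) had the same anesthesia and neck dissection without ligation and spent the 30 min in room air away from the dam. Tissue was taken 30 min after the injury from 3 regions of each pup (right cortex, right cerebellum and right striatum/thalamus). Each of the 24 libraries was made from 200 ng RNA. The cortex and striatum/thalamus, together called forebrain here, lie in the territory of the ligated carotid, and the cerebellum lies outside it. No group had hypoxia without ligation, so hypoxia and ligation cannot be told apart in a single region.

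Each library held between 1254185 and 3406624 counts on mouse miRNAs, with a median of 2161382. Levels are given as CPM, the counts of a miRNA scaled to a fixed total of mouse miRNA counts per library, after TMM normalization, edgeR's scaling that assumes most miRNAs do not differ, over the 24 libraries. A count of 0 allows up to 3 counts, which is 0.881 to 2.39 CPM by library size alone, without TMM, depending on the library. Such floors cover counting error only, since reads copied by PCR are not independent molecules.

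The neural miRNAs mmu-miR-124-3p, mmu-miR-9-5p, mmu-miR-9-3p and mmu-miR-128-3p had counts in each of the 24 libraries. Summed, these 4 neural markers averaged 166472 CPM in the cerebellum, 109426 CPM in the striatum/thalamus and 209023 CPM in the cortex (n = 8 pups each). Libraries of the striatum/thalamus did not form a single group. In 5 of them (sham pups 2 and 8, HIBI pups 1, 4 and 7) the count-weighted mean GC content of the mature miRNAs was 49.1% to 49.6%. In the other 3 (sham pups 3 and 6, HIBI pup 5) it was 47.5%, 46.8% and 46.6%, within the range of the cortex (46.2% to 48.3%). The summed neural markers were 82242 to 98768 CPM in those 5 libraries and 127909, 163215 and 130393 CPM in those 3. Results on the striatum/thalamus are therefore also given without these 3 libraries where they differ, a choice made after seeing the data.

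The hairpins of the first locus lie close together. In GRCm38, Mir144 is at chr11:78073005-78073070 and Mir451a at chr11:78073170-78073241, both on the plus strand, outside any annotated gene, with 99 bases between them. The antisense hairpin Mir451b covers the same bases as Mir451a on the minus strand. The second locus holds Mir486 at chr8:23142555-23142682 on the plus strand and Mir3107, the hairpin of mmu-miR-486b, antisense to it at chr8:23142573-23142662. Both lie within an intron of Ank1, which is on the plus strand, and of Gm15816 on the minus strand.

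RefSeq sequences for GRCm38.p6 were found for 3 of the 6 miRNAs. They are shown 5′ to 3′ to let the products of the first locus be compared, with the seed, bases 2 to 8, in capitals. None of the 3 share a seed, so their seeds would pair with different sites.
mmu-miR-451a: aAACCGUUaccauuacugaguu
mmu-miR-144-3p: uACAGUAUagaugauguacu
mmu-miR-144-5p: gGAUAUCAucauauacuguaagu

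The hairpins are shown with their mature products in capitals. In Mir451a, the mature miRNA runs from the 5′ arm into the loop, and in Mir144 a product comes from either arm.
Mir451a: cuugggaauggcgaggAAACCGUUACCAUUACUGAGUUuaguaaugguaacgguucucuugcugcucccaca
Mir144: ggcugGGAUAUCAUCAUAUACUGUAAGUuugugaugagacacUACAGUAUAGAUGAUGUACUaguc

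The 2 loci were represented very unevenly. Over the 24 libraries, mmu-miR-451a had 10616 counts and ranked 188 by total counts, and it was found in each library. From the neighbouring hairpin, mmu-miR-144-5p had 255 counts (rank 515, at least 1 count in 21 libraries) and mmu-miR-144-3p had 28 counts (rank 835, in 12 libraries, with at most 5 counts in any). For each count of mmu-miR-144-5p there were between 16.7 and 249 counts of mmu-miR-451a in the 21 libraries that had both, with a median of 39. The antisense mmu-miR-451b had 3 counts, all in the cerebellum of sham pup 8.

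The 5p miR-486 products were more abundant than mmu-miR-451a, and the 3p products less abundant. There were 29427 counts of mmu-miR-486a-5p (rank 125) and 29642 of mmu-miR-486b-5p (rank 124). The mature sequences of these 5p products are identical, so their reads cannot be assigned to a hairpin. The ratio of their counts lay between 0.892 and 1.07 in each library, with a median of 0.987, and they are counts of 1 sequence. From the other arm, mmu-miR-486a-3p had 1307 counts (rank 339) and mmu-miR-486b-3p, which is not among the 6, had 371. The 5p products outnumbered the 3p products 18.1 to 55.7 times (median 38.4). The 6 miRNAs together made up a median of 0.131% of the counts of a library. With a filter of more than 10 CPM on average, 4 of the 6 could be tested in each region, and mmu-miR-144-3p and mmu-miR-144-5p could not.

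In the cerebellum, mmu-miR-451a stood at 149, 177, 219 and 520 CPM in sham pups 2, 3, 6 and 8, and at 129, 194, 247 and 315 CPM in HIBI pups 1, 4, 5 and 7. In the striatum/thalamus the sham values were 58.7, 129, 356 and 64.8 CPM and the HIBI values 62.5, 99.6, 126 and 70.5 CPM, in the same order of pups. In the cortex the sham values were 172, 314, 171 and 242 CPM and the HIBI values 129, 164, 191 and 219 CPM. The groups overlapped in each region, and the cerebellum of sham pup 8 and the striatum/thalamus of sham pup 6 were the highest libraries of their groups. Sham and HIBI means were 266 ± 172 and 221 ± 79 CPM in the cerebellum (SD, n = 4 each). They were 152 ± 140 and 89.6 ± 28.9 CPM in the striatum/thalamus, and 225 ± 68.2 and 176 ± 38.7 CPM in the cortex.

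For the effect of injury, a miRNA is counted as called at a fold change above 1.5 with an unadjusted p under 0.05, the study's own rule, and separately at an adjusted p under 0.05. The test was edgeR's quasi-likelihood test, with p adjusted over the miRNAs tested in the region. Levels of mmu-miR-451a did not differ beyond the spread between pups in any region. The log2 fold change of HIBI over sham was -0.23 in the cerebellum (SE 0.383, edgeR adjusted p = 0.753), -0.86 in the striatum/thalamus (SE 0.527, edgeR adjusted p = 0.98) and -0.35 in the cortex (SE 0.227, edgeR adjusted p = 0.914). Exact permutation tests of 4 pups against 4, two-sided, gave p = 0.771, 0.629 and 0.286, where 0.0286 is the smallest value possible. The difference in the striatum/thalamus rested on the library of sham pup 6. Without that library its log2 fold change was 0.09, and without the 3 libraries of low GC content it was 0.23. Without the cerebellum of sham pup 8, the cerebellar value turned to 0.22.

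Counts of mmu-miR-144-5p were too few for a firm comparison. The cerebellum had 17, 7, 3 and 34 counts in sham pups 2, 3, 6 and 8 and 4, 21, 38 and 14 in HIBI pups 1, 4, 5 and 7. In the striatum/thalamus the sham libraries had 0, 0, 3 and 3 counts and the HIBI libraries 4, 7, 8 and 6. The cortex had 21, 0, 13 and 4 counts in sham and 7, 8, 24 and 9 in HIBI. In the striatum/thalamus the groups did not overlap, with all sham libraries at or below the floor of 3 counts (exact permutation p = 0.0286, n = 4 each, the smallest possible). When the average was required to be above 1 CPM, 2.43% of 740 miRNAs did not overlap between the groups in this region. With that filter the log2 fold change of mmu-miR-144-5p was 2.08 (SE 1.14, edgeR adjusted p = 0.996). It was not among the 19 miRNAs, 2.57% of 740, past the rule of fold change and unadjusted p. For mmu-miR-144-3p the cerebellum had 14 counts, the striatum/thalamus 2 and the cortex 12, with at most 5 in a library, and no difference between HIBI and sham was detectable at this depth. Its striatum/thalamus was lower than the cerebellum in 6 pups and higher in 1 (exact sign-flip permutation p = 0.0312), on levels near the floor.

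The 5p miR-486 products, which are counts of 1 sequence, passed the study's rule in the cerebellum. In sham pups 2, 3, 6 and 8, mmu-miR-486a-5p stood at 1132, 977, 515 and 803 CPM in the cerebellum, against 529, 591, 332 and 410 CPM in HIBI pups 1, 4, 5 and 7. The means were 857 ± 264 and 466 ± 116 CPM (SD, n = 4 each), and the fold change fitted by edgeR was 1.81, lower in HIBI. Sham pup 6 lay within the HIBI range, and 2 of the 4 HIBI pups lay below the lowest sham pup. The log2 fold change of mmu-miR-486a-5p was -0.86 (SE 0.272, edgeR unadjusted p = 0.00817, adjusted p = 0.432), and that of mmu-miR-486b-5p, which has the same sequence, was -0.84 (SE 0.275, adjusted p = 0.432). With any 1 pup left out, the former stayed between -1.07 and -0.72 and past the rule. The 3p product mmu-miR-486a-3p was at 59.9, 27.4, 27.8 and 33.7 CPM in sham and at 34.1, 14.6, 10.1 and 19.2 CPM in HIBI, and did not pass the rule. Its log2 fold change was -0.90 (SE 0.42, edgeR unadjusted p = 0.0542). Exact permutation over 4 pups against 4 gave p = 0.0857 for mmu-miR-486a-5p and 0.114 for mmu-miR-486a-3p.

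Of the 4 miRNAs tested in the cerebellum, 2 were thus called lower in HIBI, and they share 1 sequence. Over all 434 miRNAs tested there, 7.83% were called (34 miRNAs), 4.15% were called lower, and 3.92% did not overlap between the groups. At an adjusted p under 0.05, edgeR called 0 of the 434 (0%), with 44 at an unadjusted p under 0.05, and DESeq2 and edgeR's exact test also called 0. With no filter edgeR called 6 of 1315. The 34 calls depended on single pups, with 18 without pup 2, 20 without pup 3, 62 without pup 1 and 82 without pup 6. The split of the cerebellar calls depended on scaling. TMM gave 16 higher and 18 lower, scaling by library size alone 41 and 10, and the upper quartile 7 and 39, as the median log2 fold change of all miRNAs moved from 0.107 to 0.268 and to -0.0188. The 5p miR-486 products were lower and past the rule under each of these scalings, and mmu-miR-486a-3p was lower under each. The call of mmu-miR-486a-3p depended on the choices made. It passed the rule with the upper quartile, DESeq2, a filter at 1 CPM, no filter or the library GC covariate, and without pup 1 (-1.33) or pup 6 (-1.04), but not with TMM or library size alone.

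In the forebrain no difference passed the rule. In the striatum/thalamus, mmu-miR-486a-5p had 1121, 1367, 1019 and 1611 counts in sham pups 2, 3, 6 and 8 and 1060, 1950, 792 and 1695 counts in HIBI pups 1, 4, 5 and 7, with means of 628 ± 133 and 793 ± 388 CPM (SD, n = 4 each). In the cortex it stood at 280, 357, 399 and 427 CPM in sham and at 462, 348, 323 and 281 CPM in HIBI. The groups overlapped in both regions, and HIBI pup 4 had the highest value of the striatum/thalamus. The log2 fold change was 0.23 in the striatum/thalamus (SE 0.312, edgeR adjusted p = 0.98), and -0.02 without pup 4. In the cortex it was -0.05 (SE 0.184, edgeR adjusted p = 0.989). None of the 4 miRNAs tested was called in either region. Over all miRNAs, 2.75% of 436 were called in the striatum/thalamus and 3.41% of 410 in the cortex. The 12 calls in the striatum/thalamus became 5 without pup 3, 38 without pup 5, 23 without pup 7, 19 without pup 8, and 7 without the 3 libraries of low GC content. At an adjusted p under 0.05, edgeR called 0% in the striatum/thalamus (0 miRNAs, 14 at an unadjusted p under 0.05) and DESeq2 and edgeR's exact test also called 0. With no filter edgeR called 3 there, and in 1 model of 24 libraries it called 1. In the cortex edgeR called 0.244%, a single miRNA, mmu-miR-3963, named here after its value was seen, where DESeq2 called 4 and the exact test 3. With no filter edgeR called 9 in the cortex, and in 1 model of 24 libraries it called 0.

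**Figure D1:**
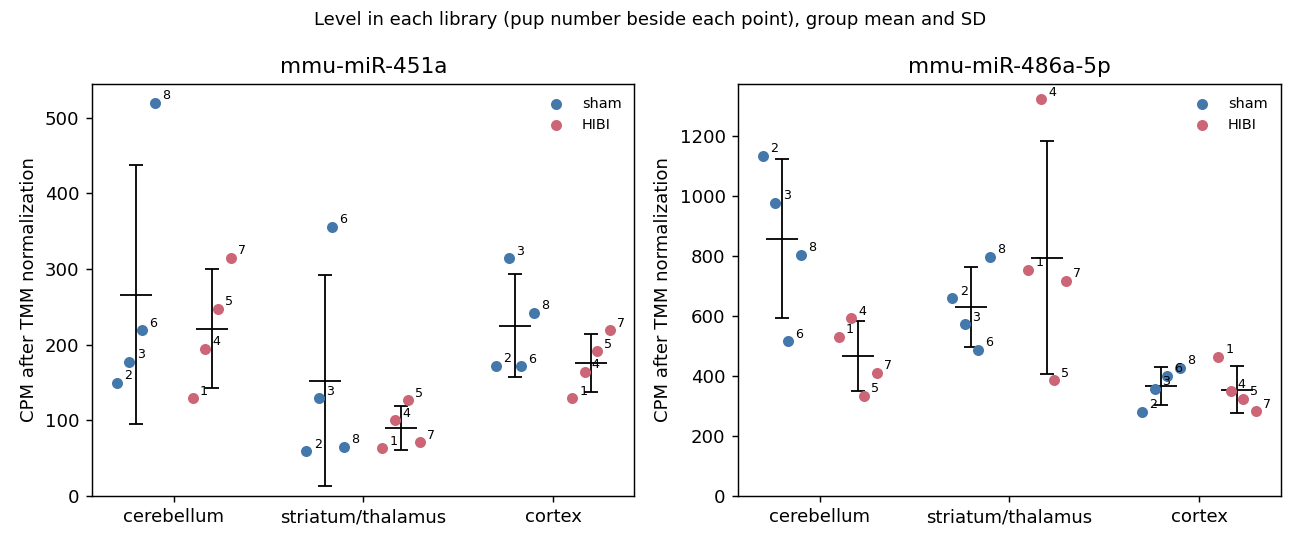
Level of mmu-miR-451a (left) and mmu-miR-486a-5p (right) in CPM after TMM normalization in each of the 24 libraries, by region and group. Points are single pups with the pup number, horizontal bars are group means and vertical bars the SD (n = 4). In the cerebellum, mmu-miR-486a-5p lies between 515 and 1132 CPM in sham and between 332 and 591 CPM in HIBI. Both miRNAs overlap between the groups.

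Whether the injury effect differed between the forebrain and the cerebellum was tested directly, as the study reads an opposite direction in these regions as a sign of ischemia. In each pup, the log2 level of mmu-miR-486a-5p averaged over both forebrain regions was compared with that in the cerebellum. The within-pup difference was 0.156, 0.198, 0.0858 and 0.127 in HIBI pups 1, 4, 5 and 7, where striatum/thalamus lay above the cerebellum and cortex below it in each HIBI pup. In sham pups 2, 3, 6 and 8 it was -1.4, -1.11, -0.226 and -0.46, with the average of the forebrain regions lower in each. The groups did not overlap, as for 10.6% of the 435 miRNAs tested (46). They differed by 0.94 for mmu-miR-486a-5p, 0.98 for mmu-miR-486b-5p and 0.79 for mmu-miR-486a-3p, each at the smallest possible p of 0.0286 by exact permutation (n = 4 pups each).

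In the edgeR model of all 24 libraries, the interaction had a log2 value of 1.02 for mmu-miR-486a-5p (SE 0.355, edgeR adjusted p = 0.185) and 1.05 for mmu-miR-486b-5p (SE 0.34, edgeR adjusted p = 0.185). It was 0.88 for mmu-miR-486a-3p (edgeR adjusted p = 0.453) and -0.29 for mmu-miR-451a (edgeR adjusted p = 0.789). None of the 4 passed, and neither did any of the 435 miRNAs tested (0%). Of these, 70 had an unadjusted p under 0.05, and DESeq2 also called 0. Of the 67 that had a fold change above 1.5 as well, 35 were higher and 32 lower, against 21 and 56 with scaling by library size alone, 41 and 22 with the upper quartile, and 28 and 43 with DESeq2. The median interaction of all miRNAs moved from -0.0393 with TMM to -0.224 with library size alone. For mmu-miR-451a the within-pup difference was -0.515, -0.599, -0.667 and -1.33 in the HIBI pups and -0.564, 0.19, 0.174 and -2.04 in the sham pups (exact permutation p = 0.629, n = 4 each).

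Regions were compared over both groups, and calls are at an adjusted p under 0.05 in the edgeR model of 24 libraries. A level of mmu-miR-451a of 244 ± 126 CPM in the cerebellum and 200 ± 57.6 CPM in the cortex contrasted with 121 ± 99.2 CPM in the striatum/thalamus (SD, n = 8 pups each). The cerebellum and cortex did not differ beyond their spread, with a log2 difference of -0.29 for cortex minus cerebellum (SE 0.319, edgeR adjusted p = 0.427). The striatum/thalamus was lower than the cerebellum in 7 of 8 pups, by a log2 difference of -1.06 (SE 0.324, edgeR adjusted p = 0.00578), and the exact sign-flip permutation p was 0.0234. The cortex was higher than the striatum/thalamus in 7 of 8 pups, by 0.77 (SE 0.323, edgeR adjusted p = 0.0477), with an exact permutation p of 0.0391. Pup 6 was the exception in both comparisons.

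The order of regions was another one for miR-486. A level of mmu-miR-486a-5p of 661 ± 282 CPM in the cerebellum and 711 ± 283 CPM in the striatum/thalamus stood above 360 ± 66.2 CPM in the cortex (SD, n = 8 pups each). The first pair did not differ beyond their spread, with 0.16 for striatum/thalamus minus cerebellum (SE 0.204, edgeR adjusted p = 0.486). Its direction differed by group, as the striatum/thalamus was higher in 4 of 4 HIBI pups and lower in 4 of 4 sham pups. For mmu-miR-486b-5p, of the same sequence, it was higher in 4 of 4 HIBI pups and lower in 3 of 4 sham pups, and in sham pup 6 the summed 5p reads were at 1015 and 1012 CPM in these regions. This pair of regions alone was not tested for an interaction. The cortex was lower than the cerebellum in 8 of 8 pups, by a log2 difference of -0.81 (SE 0.205, edgeR adjusted p = 0.00148). It was also lower than the striatum/thalamus in 8 of 8 pups, by -0.97 (SE 0.206, edgeR adjusted p = 0.000379). The exact sign-flip permutation p was 0.00781 for both, the smallest that 8 pups allow. The lower cortex holds for mmu-miR-486b-5p too, with log2 differences of -0.76 (edgeR adjusted p = 0.00193) and -0.90 (edgeR adjusted p = 0.000517).

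The 3p product mmu-miR-486a-3p, at 28.3 ± 15.4, 34.4 ± 16.6 and 16.2 ± 7.18 CPM in cerebellum, striatum/thalamus and cortex (SD, n = 8 each), followed the same order. It was lower in the cortex than in the striatum/thalamus by a log2 difference of -1.09 (edgeR adjusted p = 0.0102). Against the cerebellum its difference of -0.74 missed the threshold (edgeR adjusted p = 0.0608), and passed it with the pup as a replicate block (edgeR adjusted p = 0.0083). With the average required to be above 1 CPM, mmu-miR-144-5p was lower in the striatum/thalamus than in the cerebellum by a log2 difference of -2.18 (SE 0.631, edgeR adjusted p = 0.00498), as was mmu-miR-451a. For mmu-miR-144-5p the cortex passed against neither, at -0.74 against the cerebellum (edgeR adjusted p = 0.296) and 1.44 against the striatum/thalamus (edgeR adjusted p = 0.0812).

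Most brain miRNAs differ between these regions, so the counts of calls say little about these 4. The assumption of TMM that most miRNAs do not differ thus does not hold between regions, and the calls of the 4 with other scalings are given with the alternatives. In cortex against cerebellum 2 of the 4 tested were called, both lower, and 64.8% of 435 miRNAs were. In striatum/thalamus against cerebellum 1 of 4 was called, lower, and 69.9% of 435 were. In cortex against striatum/thalamus 4 of 4 were called, mmu-miR-451a as higher and 3 as lower, and 53.8% of 435 were.

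The regional differences of mmu-miR-451a depended on single pups and on how the libraries were treated. Without pup 8, striatum/thalamus minus cerebellum was -0.66 (edgeR adjusted p = 0.0649), and in the 12 sham libraries alone it was -0.77 (edgeR adjusted p = 0.165). Cortex minus striatum/thalamus no longer passed when any 1 of pups 2, 3, 4, 5, 7 and 8 was left out, with values between 0.59 and 0.85. In the 12 sham libraries alone it was 0.50 (edgeR adjusted p = 0.45). The 3 striatum/thalamus libraries of low GC content held the 3 highest levels of mmu-miR-451a there. These were 129 and 356 CPM in sham pups 3 and 6 and 126 CPM in HIBI pup 5. Leaving out these libraries lowers the regional level by construction, so the differences of mmu-miR-451a were larger. They became -1.74 against the cerebellum (edgeR adjusted p = 1.4e-05) and 1.49 for cortex minus striatum/thalamus (edgeR adjusted p = 0.00015). Neither p-value is a separate test of the regional difference. For mmu-miR-486a-5p those 3 libraries held the 3 lowest levels of the region. With them left out, it gave 0.43 (edgeR adjusted p = 0.0542) and -1.23 (edgeR adjusted p = 3.09e-05) in the same comparisons. Leaving them out raises its level in the region by construction, so these p-values are not separate tests either.

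Both families moved with the base composition of the libraries, in opposite directions. Over the 24 libraries, deviations of mmu-miR-451a from its group means had r = -0.685 with the mean GC content of the library, and those of mmu-miR-486a-5p had r = 0.74, given as a description. These correlations are not particular to the 2 miRNAs, since 71 miRNAs had a more negative value than mmu-miR-451a and 21 a more positive value than mmu-miR-486a-5p. The mature mmu-miR-451a has 36.4% GC, and the median of the 371 tested miRNAs with a sequence, 85.3% of 435, is 50%. For cerebellum, striatum/thalamus and cortex, the mean GC content was 45.7% ± 1.14, 48.5% ± 1.26 and 47% ± 0.755 (SD, n = 8). Sham and HIBI had 45.8% and 45.5% in the cerebellum, 48.2% and 48.7% in the striatum/thalamus, and 46.8% and 47.1% in the cortex.

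With the library's mean GC content as a covariate, chosen after seeing the data, mmu-miR-451a no longer passed between regions. Its log2 difference was 0.08 for striatum/thalamus minus cerebellum (edgeR adjusted p = 0.862) and 0.27 for cortex minus striatum/thalamus (edgeR adjusted p = 0.457). For mmu-miR-486a-5p, cortex minus cerebellum stayed, at -1.18 (edgeR adjusted p = 1.86e-06), as did cortex minus striatum/thalamus without the pup as a block, at -0.49 (edgeR adjusted p = 0.0253). Striatum/thalamus minus cerebellum turned to -0.69 (edgeR adjusted p = 0.0154). With the pup as a replicate block added, since regions are paired within pups, cortex minus cerebellum kept its call, at -1.1 (edgeR adjusted p = 0.000278). The other comparisons of mmu-miR-486a-5p lost theirs, at -0.55 for cortex minus striatum/thalamus (edgeR adjusted p = 0.0639) and -0.55 for striatum/thalamus minus cerebellum (edgeR adjusted p = 0.223). The lower cerebellar level of mmu-miR-486a-5p in HIBI stayed at -0.77 and past the study's rule, and that of mmu-miR-486a-3p passed it, at -0.85. The mean GC content follows from which miRNAs a region makes as well as from how a library was made, and these cannot be told apart here. Removing the trend on mature GC content within each library, which needs a sequence, gave -0.61 for mmu-miR-451a in striatum/thalamus minus cerebellum (edgeR adjusted p = 0.0276) and 0.48 in cortex minus striatum/thalamus (edgeR adjusted p = 0.101).

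The ratio of the families was also compared. The count of mmu-miR-451a per count of the 5p miR-486 products ranged from 0.039 to 0.429 over the 24 libraries, with a median of 0.193. In the cerebellum it was 0.0676, 0.0892, 0.216 and 0.316 in sham pups 2, 3, 6 and 8 and 0.117, 0.169, 0.369 and 0.384 in HIBI pups 1, 4, 5 and 7. In the striatum/thalamus it was 0.0462, 0.114, 0.351 and 0.0403 in sham and 0.0423, 0.039, 0.154 and 0.0488 in HIBI. The 3 highest of these are the libraries of low GC content, and the other 5 lie between 0.039 and 0.0488. In the cortex the ratio was 0.313, 0.429, 0.217 and 0.283 in sham and 0.131, 0.224, 0.292 and 0.382 in HIBI.

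The log2 ratio was higher in the cortex than in the striatum/thalamus in 7 of 8 pups, by 1.85 (exact permutation p = 0.0156). It was lower in the striatum/thalamus than in the cerebellum in 6 of 8 pups, by a log2 difference of -1.29 (exact permutation p = 0.0469), and cortex minus cerebellum was 0.57 (exact permutation p = 0.211). No difference in the ratio between HIBI and sham exceeded the spread between pups, with exact permutation p = 0.343 (cerebellum), 0.6 (striatum/thalamus) and 0.429 (cortex). These tests of the ratio were added after seeing the data.

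**Figure D2:**
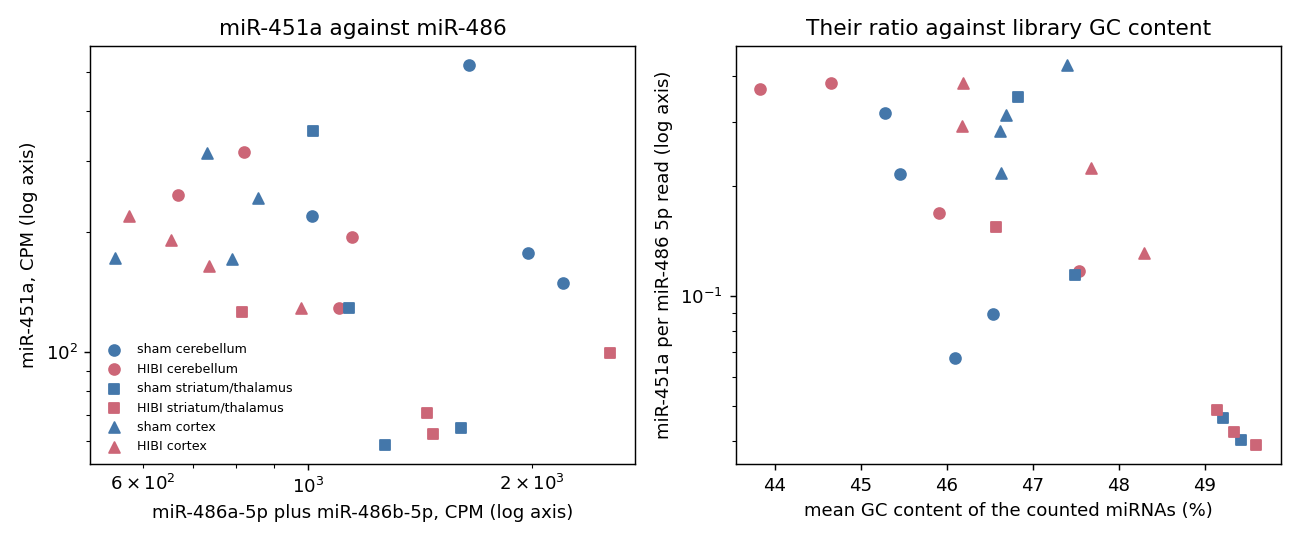
Left, mmu-miR-451a against the sum of mmu-miR-486a-5p and mmu-miR-486b-5p, in CPM on log axes. Right, mmu-miR-451a per miR-486 5p read, on a log axis, against the mean GC content of the counted miRNAs in percent. Each point is 1 of the 24 libraries, with region by shape and group by colour. The 5 striatum/thalamus libraries at or above 49.1% have ratios between 0.039 and 0.0488.

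Over the 8 pups of a region, Pearson's r of mmu-miR-451a with the 3 tested miR-486 products was negative in each of the 9 relations, from -0.516 to -0.161. With mmu-miR-486a-5p it was -0.179 in the cerebellum (rho -0.429), -0.465 in the striatum/thalamus (rho -0.524) and -0.212 in the cortex (rho -0.19). Exact permutation p for r was 0.679, 0.248 and 0.617, and for rho 0.299, 0.197 and 0.665, and no adjusted p over the 9 relations was below 0.331. The lowest unadjusted p was that of rho with mmu-miR-486a-3p in the striatum/thalamus (rho -0.762, exact permutation p = 0.0368, adjusted 0.331, with r = -0.415, exact permutation p = 0.309, and -0.61 without the 2 farthest pups). Without the 2 pups farthest from the median of mmu-miR-451a, the r with mmu-miR-486a-5p were -0.879, -0.256 and 0.2, so that the sign in the cortex rested on those pups. The 9 relations are not independent, as the 5p products share a sequence.

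No relation of mmu-miR-451a between regions of a pup passed. Between cortex and cerebellum r was 0.486 (rho 0.524), between striatum/thalamus and cerebellum -0.0404 (rho 0.262), and between cortex and striatum/thalamus 0.0689 (rho 0.214). By exact permutation over 8 pups, p for r was 0.22, 0.92 and 0.858 (adjusted 0.661, 0.92 and 0.92), and p for rho 0.197, 0.536 and 0.619 (adjusted 0.59, 0.619 and 0.619). Without the 2 farthest pups r was 0.926, 0.0782 and -0.45.

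Which miRNAs varied most like mmu-miR-451a was read from the deviations from the 6 group means over the 24 libraries, among 431 others that average above 10 CPM, as a description. The closest were mmu-miR-26b-5p (r = 0.806), mmu-miR-9-3p (0.802), mmu-miR-16-5p (0.8), mmu-miR-146a-5p (0.778) and mmu-miR-126a-3p (0.77). They include a neuronal miRNA (mmu-miR-9-3p), an endothelial one (mmu-miR-126a-3p) and one abundant in red cells and elsewhere (mmu-miR-16-5p). Their r with the mean GC content of the library was between -0.891 and -0.836, and their mature sequences have 31.8% to 45.5% GC. The miR-486 products stood at the other end, with r = -0.412 for mmu-miR-486a-5p (place 384 of 434, the 431 and the 3 miR-486 products together), -0.351 for mmu-miR-486b-5p (place 359) and -0.474 for mmu-miR-486a-3p (place 405). The 5 neighbours of mmu-miR-451a are shown to let their sequences be compared. They have no seed in common.
mmu-miR-26b-5p: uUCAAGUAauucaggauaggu
mmu-miR-9-3p: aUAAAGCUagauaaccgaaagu
mmu-miR-16-5p: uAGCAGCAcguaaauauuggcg
mmu-miR-146a-5p: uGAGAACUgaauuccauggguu
mmu-miR-126a-3p: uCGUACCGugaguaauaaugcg

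Read the same way, after seeing the data, mmu-miR-486a-5p was followed by mmu-miR-486b-5p (r = 0.983), mmu-miR-99b-5p (0.932), mmu-miR-125a-5p (0.926), mmu-miR-1198-5p (0.871), mmu-miR-744-5p (0.848) and mmu-miR-320-3p (0.839). In the cerebellum, mmu-miR-125a-5p was lower in HIBI by a log2 fold change of -0.72 (SE 0.233, edgeR unadjusted p = 0.00949, adjusted p = 0.432). It passed the study's rule, as did 7.83% of all 434 miRNAs. Not past the rule were mmu-miR-99b-5p (-0.494), mmu-miR-1198-5p (-0.489), mmu-miR-744-5p (-0.085) and mmu-miR-320-3p (-0.579). The mature mmu-miR-1198-5p has 54.5% GC. The mature mmu-miR-99b-5p and mmu-miR-744-5p have 63.6% GC each, and mmu-miR-125a-5p has 50%. These are common outside the red cell lineage. The part of base composition in these likenesses was not tested beyond the covariate.

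Of 5 further miRNAs abundant in red cells but made by many cells, 5, 4 and 4 were tested in cerebellum, striatum/thalamus and cortex. None was called between HIBI and sham, where 7.83%, 2.75% and 3.41% of all miRNAs were, so a count of 0 says little. Their median log2 fold change was 0.0356 in the cerebellum, where that of all miRNAs was 0.107. That of the 4 tested miR-451a and miR-486 entries was -0.851, which is set by the 3 miR-486 products, as mmu-miR-451a was at -0.23. Summed, the 5 averaged 13262 CPM in sham and 12916 CPM in HIBI in the cerebellum, with mmu-miR-16-5p the most abundant. In striatum/thalamus minus cerebellum, where 69.9% of all miRNAs were called and 147 of 435 were lower, 3 of the 4 tested were lower and mmu-miR-185-5p was higher, at 0.37 (edgeR adjusted p = 0.0152). The lower ones include mmu-miR-16-5p at a log2 difference of -2.55 (edgeR adjusted p = 9.29e-10) and mmu-miR-25-3p at -3.14 (edgeR adjusted p = 6.45e-13). In cortex minus cerebellum, where 64.8% of 435 were called, 3 of these 4 were lower and 1 higher. There mmu-miR-16-5p was at -1.17 (edgeR adjusted p = 6.72e-05), whereas mmu-miR-451a did not differ (-0.29, edgeR adjusted p = 0.427). In cortex minus striatum/thalamus, where 53.8% of 435 were called, 2 of these 4 were higher and 0 lower, and mmu-miR-451a was higher. Over the 24 libraries the deviations of mmu-miR-16-5p had r = 0.8 with mmu-miR-451a and -0.571 with mmu-miR-486a-5p. Those of mmu-miR-25-3p had 0.632 and -0.555, of mmu-miR-92a-3p 0.0633 and 0.55, and of mmu-miR-185-5p 0.226 and -0.101.

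Markers of white cells, which also come with blood, were mixed. Of the 6 fixed, mmu-miR-150-5p was the most abundant, at 737 CPM in the cerebellum, 1281 CPM in the striatum/thalamus and 743 CPM in the cortex. The myeloid mmu-miR-223-3p averaged 35.1, 20.5 and 28.3 CPM there. The pan-leukocyte mmu-miR-142a-3p was near 0, with 12, 3 and 3 counts in these regions and no count in 18 of the 24 libraries. Of these, 2, 3 and 2 were tested between HIBI and sham in cerebellum, striatum/thalamus and cortex, and none was called, where 7.83%, 2.75% and 3.41% of all miRNAs were. In striatum/thalamus minus cerebellum, mmu-miR-150-5p was higher, at 0.80 (edgeR adjusted p = 5.63e-06), and mmu-miR-223-3p lower, at -0.75 (edgeR adjusted p = 0.013). Deviations of mmu-miR-150-5p had r = -0.242 with mmu-miR-451a and 0.654 with mmu-miR-486a-5p, and those of mmu-miR-223-3p had 0.592 and -0.235.

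In striatum/thalamus minus cerebellum, 1 of 1 endothelial and 1 of 3 mural markers tested were called, where 69.9% of all 435 miRNAs were. The endothelial mmu-miR-126a-3p was lower in the striatum/thalamus than in the cerebellum by a log2 difference of -0.996 (edgeR adjusted p = 0.000156) and higher in the cortex than in the striatum/thalamus by 0.91 (edgeR adjusted p = 0.000675). Its passenger mmu-miR-126a-5p was not above the filter in this model. Of the 3 markers of mural cells, mmu-miR-143-3p was lower in the striatum/thalamus than in the cerebellum, at -0.81 (edgeR adjusted p = 0.0027), whereas mmu-miR-145a-3p (-0.75, edgeR adjusted p = 0.0633) and mmu-miR-145a-5p (0.05, edgeR adjusted p = 0.795) were not called. The summed mural markers were between 2451 and 5625 CPM in the cerebellum, 1764 and 3864 CPM in the striatum/thalamus and 2029 and 3608 CPM in the cortex. Between HIBI and sham, the 3 mural markers and 1, 1 and 2 endothelial markers were tested in cerebellum, striatum/thalamus and cortex, and none was called, where 7.83%, 2.75% and 3.41% of all miRNAs were. The part of vessels in the levels of mmu-miR-451a was not tested.

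Skeletal muscle is another source of miR-486, and its markers were highest in the cerebellum. Summed, the 5 averaged 503 CPM in the cerebellum, 81.8 CPM in the striatum/thalamus and 47.7 CPM in the cortex, with mmu-miR-206-3p the most abundant in the cerebellum and mmu-miR-1a-3p in the other regions. In the cerebellum the sum lay between 449 and 605 CPM in sham and between 350 and 653 CPM in HIBI. There, mmu-miR-206-3p averaged 419 ± 85.7 CPM in sham and 286 ± 40.8 CPM in HIBI (SD, n = 4 each), with a log2 fold change of -0.53 (SE 0.205, edgeR adjusted p = 0.432) that missed the fold change of the rule. Its groups did not overlap, at 360 to 546 CPM in sham and 254 to 346 CPM in HIBI. Of all 434 miRNAs, 3.92% did not overlap. Its direction was that of the miR-486 products, but mmu-miR-133a-3p (0.158, edgeR adjusted p = 0.862) and mmu-miR-1a-3p went the other way. The muscle and heart miRNA mmu-miR-1a-3p was higher in HIBI, at 1.05 (SE 0.481, edgeR unadjusted p = 0.0496, adjusted p = 0.432), and was the 1 called of 3 muscle markers tested, where 7.83% of all 434 miRNAs were called. No counts of mmu-miR-133a-5p were found in the cerebellum. Deviations of mmu-miR-206-3p and mmu-miR-1a-3p had r = -0.216 and -0.47 with mmu-miR-486a-5p. The part of muscle in the cerebellar difference of miR-486 was not tested.

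Of the 5 markers of the choroid plexus and of ciliated cells, 4, 5 and 3 were tested in cerebellum, striatum/thalamus and cortex. Their median log2 fold changes in HIBI were -0.632, 0.593 and 0.309 for cerebellum, striatum/thalamus and cortex, and the median interaction was 0.989, where all miRNAs had 0.107, -0.0287, -0.0185 and -0.0393. Single markers differed from these medians in sign, such as mmu-miR-211-5p at -0.68 in the striatum/thalamus and mmu-miR-34c-5p at -0.14 in the cortex. The choroid plexus miRNA mmu-miR-204-5p, the most abundant of the 5, had an interaction of 1.13 (SE 0.396, edgeR adjusted p = 0.196). The ciliated cell miRNA mmu-miR-34b-3p had 1.495 (SE 0.432, edgeR adjusted p = 0.151) and was called higher in HIBI in the striatum/thalamus, at 0.75 (edgeR adjusted p = 0.98), as the 1 called of 5, where 2.75% of all 436 miRNAs were called. In the cerebellum the summed markers lay between 2558 and 10184 CPM in sham and between 2764 and 4054 CPM in HIBI. Over the 24 libraries, deviations of mmu-miR-486a-5p had r = 0.0278 with mmu-miR-204-5p and 0.297 with mmu-miR-34b-3p. Whether choroid plexus in the dissected tissue bears on miR-486 was not tested. The liver miRNA mmu-miR-122-5p, which circulates in plasma, averaged 6.99 CPM in the cerebellum, 19.9 CPM in the striatum/thalamus and 8.47 CPM in the cortex. It was higher in the striatum/thalamus than in the cerebellum by 1.47 (edgeR adjusted p = 0.00221), against the direction of mmu-miR-451a.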

How the data were processed

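MiRNA-Seq reads were aligned by the authors with bowtie2, version not given, to the mature mouse sequences of miRBase, and they deposited for each library a table of the read count per mature miRNA, which is not normalized. Neither the miRBase release nor the handling of reads that fit more than 1 miRNA is stated. The deposited tables also hold the authors' edgeR comparison (version not given) as a log2 fold change, average log2 CPM, p-value and false discovery rate, which were not used. The 20 castor bean entries among 1551 (84 counts, 0.000156% of the total) did not enter library sizes or tests.

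The counts were fitted with edgeR 4.0.16 and DESeq2 1.42.0 under R 4.3.3, and permutations were run in Python 3.11.15 with numpy 2.4.6 and scipy 1.17.1. In each region the 8 libraries were scaled by TMM, miRNAs averaging above 10 CPM were kept, and the 2 groups were tested by the quasi-likelihood method of edgeR with Benjamini-Hochberg adjustment over the miRNAs tested. Regions and the interaction were tested in 1 model of the 6 group means over 24 libraries. Single values were tested two-sided on log2(CPM + 1) over the 70 arrangements of 4 against 4 pups, the 256 sign patterns of 8 pups, or, for correlations, the 40320 pairings of 8 pups. The code was tested on simulated data.

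The same animal gave all 3 regions, so regions are paired within pups. Over 435 miRNAs, each pup's deviations from the group means had a median correlation of 0.27 between cortex and cerebellum, 0.16 between striatum/thalamus and cerebellum and 0.19 between cortex and striatum/thalamus, above 0.1 in 7, 5 and 5 of 8 pups. The pup as a replicate block was an alternative for these comparisons. No pair of replicates was as alike as resequencing of 1 library would be, and the closest, the cortex of HIBI pups 5 and 7, differed with a chi-square per degree of freedom of 26.5.

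The miRNAs named are the 6 members, the members of the marker lists (red cell, other red-cell-abundant, leukocyte, endothelial, mural, skeletal muscle, liver, neural, and choroid plexus and ciliated), and the 5 miRNAs whose deviations correlate most with mmu-miR-451a. Any other was named after its values were seen. The members and lists were chosen with earlier results of these data known, so no test over a list was made. Sequences and mature GC content are from RefSeq for GRCm38.p6, and hairpin positions from GENCODE on GRCm38. The alternatives were other scalings, filters and tests, summed miR-486 5p reads, left-out pups, sham libraries alone and a pseudocount of 10. GC correction by a loess trend (span 0.75), library GC content as a covariate, the fit without 3 libraries and the ratio tests were added after seeing the data.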

Additional observations from a re-analysis of the deposited data

Results flagged for a closer look

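The within-pup contrast of forebrain and cerebellum differed between HIBI and sham for the miR-486 products. On the log2 scale the difference was 0.941 for mmu-miR-486a-5p, 0.981 for mmu-miR-486b-5p, 0.787 for mmu-miR-486a-3p and 0.962 for the summed 5p reads, each with an exact permutation p of 0.0286, the smallest that 4 pups against 4 allow. The groups did not overlap in this contrast for 46 of the 435 miRNAs tested (10.6%). In the edgeR model none of these interactions passed after adjustment over all miRNAs. The 4 values come from the same pups, and the 5p products share a sequence. The cause was not tested.

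A single library was separated from the other 3 of its group in 4 of the 48 groups examined, where chance gives about 1 in 20. In 2 of these the other 3 libraries are at 0, so that any count is separated: mmu-miR-144-3p was at 1.17 CPM (2 counts) in the striatum/thalamus of sham pup 2 and at 0.376 CPM (1 count) in the cortex of HIBI pup 7. Both are within the 3 counts that a count of 0 allows and show no difference between libraries. The level of mmu-miR-144-5p was 8.06 CPM in the cortex of HIBI pup 5. The ratio of mmu-miR-451a to the miR-486 5p products was 0.154 in the striatum/thalamus of HIBI pup 5, where the other HIBI pups had at most 0.0488, and this library has a lower mean GC content than those.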

How the results depend on the processing

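Each result was recomputed under other scalings, filters and tests, without each pup, in sham libraries alone, with the pup as a replicate block and, chosen after seeing the data, with GC corrections, without 3 libraries and with both 5p miR-486 products summed. Of the results that answer a comparison, 232 recomputed log2 values kept their direction and their side of the threshold, 22 reversed, 14 lost the call and 1 gained it. Of the counts of calls, 221 stayed within 1.5 times the reported count and 30 did not, whatever their split into higher and lower. Of those for other miRNAs and correlations, 285 kept both, 15 reversed, 15 gained the call and 4 lost it. Except where the alternative tests more miRNAs or fewer pups, the cause was not tested.

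In the cerebellum the lower level of mmu-miR-486a-5p in HIBI kept its direction and call under each alternative run, between -1.07 without pup 6 and -0.72 without pup 5 over the left-out pups. The calls among all miRNAs there were 61 above 1 CPM, 106 with no filter, and 18 to 82 with a pup left out. For mmu-miR-451a, leaving out a pup gave -0.45 to 0.222, the latter without pup 8.

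In the striatum/thalamus the calls between HIBI and sham were 19 above 1 CPM, 54 with no filter, 21 with DESeq2, 19 in 1 model of 24 libraries, 5 to 38 with a pup left out and 7 without the 3 libraries of lowest GC content. With no filter 1 of the 6 miRNAs was called, mmu-miR-451a at -0.884, where 54 of all 1265 miRNAs were. With a pup left out it ranged from -1.12 to 0.0929, and without the 3 libraries it was 0.226. There mmu-miR-486a-5p ranged from -0.0209 without pup 4 to 0.487, and mmu-miR-486a-3p from -0.367 to 0.255, with 0.255, 0.158 and 0.0569 without pups 2, 5 and 7. In the cortex 41 miRNAs were called above 1 CPM and 86 with no filter. The small cortical values changed sign. With a pup left out mmu-miR-486a-5p ranged from -0.185 to 0.0608, with 0.00678, 0.0608 and 0.0513 without pups 6, 7 and 8, and the summed products gave 0.0423. For mmu-miR-486a-3p the range was -0.632 to 0.116, with 0.116 and 0.0221 without pups 5 and 7. For mmu-miR-486b-5p it was -0.0966 to 0.185, with -0.0966 and -0.0444 without pups 1 and 2, and -0.042 with the GC covariate.

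With the pup as a replicate block, mmu-miR-486a-3p in cortex minus cerebellum passed at -0.738 (edgeR adjusted p = 0.0083), and among the 6 miRNAs the block changed no other call. With the block mmu-miR-451a was at -1.1 in striatum/thalamus minus cerebellum and 0.88 in cortex minus striatum/thalamus.

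For mmu-miR-451a, striatum/thalamus minus cerebellum ranged from -1.54 to -0.656 with a pup left out and lost the call without pup 8. It was -0.766 in the sham libraries alone, 0.0806 with the library GC covariate and 0.66 with covariate and block. Cortex minus striatum/thalamus ranged from 0.59 to 1.25 with a pup left out. It was 0.733 with the miR-486 products summed, 0.495 in sham alone, 0.483 with the GC correction (0.531 with the block), 0.265 with the GC covariate and -0.014 with covariate and block. Cortex minus cerebellum turned to 0.346 with the covariate and 0.646 with the block added. The interaction of mmu-miR-451a ranged from -0.902 to 0.172 with a pup left out. It was 0.0644 with the GC correction (0.0882 with the block), 0.0802 with the covariate (0.201 with the block) and 0.189 without the 3 libraries.

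In striatum/thalamus minus cerebellum the miR-486 products changed sign. In sham alone mmu-miR-486a-5p, mmu-miR-486b-5p and mmu-miR-486a-3p were at -0.378, -0.377 and -0.022, with the covariate at -0.686, -0.644 and -1.02, and with covariate and block at -0.549, -0.51 and -0.311. In cortex minus striatum/thalamus, covariate and block left mmu-miR-486a-5p at -0.547 without the call. In striatum/thalamus minus cerebellum, 2 of the 6 miRNAs were called above 1 CPM, as were 374 of all 727. With no filter 2 were called, as were 376 of 1531. Of the 6, 0 were called in sham alone, 3 with the covariate, 0 with covariate and block, and 0 to 1 with a pup left out. In cortex minus striatum/thalamus 2 were called with the covariate, 0 with covariate and block, and 2 to 4 with a pup left out. Calls among all miRNAs with covariate and block were 157 in the former comparison and 139 in the latter. For sham alone, the covariate alone and left-out pups no share of all miRNAs is given, so these counts of the 6 say little. Between regions, scaling by library size or by the upper quartile kept the direction of the 4 tested miRNAs and the calls of mmu-miR-451a and the 5p miR-486 products. The interaction gave 10 calls with no filter. The correlation of mmu-miR-451a between striatum/thalamus and cerebellum was 0.0274 with scaling by library size.

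Depth limits the miR-144 products, and 4 pups in a group allow no exact p below 0.0286. The groups differ in hypoxia and ligation together, and blood in the tissue was not measured. The reads of the identical 5p miR-486 products cannot be assigned to a hairpin.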

Other observations

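The passenger mmu-miR-486b-3p had 371 counts over the 24 libraries, with at most 26 in any, and the antisense mmu-miR-451b had 3 counts in 1 library. The leukocyte miRNA mmu-miR-223-5p had 3 counts in the cerebellum and 0 in the other regions.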
